A study of Homo sapiens with 2 samples.

Results

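Ribosomal protein pseudogenes are copies of ribosomal protein genes that the annotation does not list as coding for a protein. They were taken here as the rows of the count table whose class contains the word pseudogene, whose symbol starts with RPL or RPS, and whose counts over both libraries sum to at least 10. The rule found 14 rows, out of 1298 such pseudogene rows at any count and 61554 rows in the table. All 14 were named as copies of a cytosolic ribosomal protein gene, their parent gene, which the symbol gives, and the 14 had 10 parents. The rows were selected on their summed count in these libraries, so how high they are among pseudogenes is a description. The ratio between the libraries was not part of the rule.

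Ribosome profiling sequences the short RNA fragments that translating ribosomes shield from nuclease. The libraries came from HEK293T, a transfectable line derived from human embryonic kidney, and all labels give its genotype as WT. Both cultures were transfected with 1 plasmid for TetRS, an engineered chimeric pyrrolysyl-tRNA synthetase, and for its tRNA with a CGA anticodon, carried as 12 U6 cassettes, in the presence of TetBu. The culture titled RiboW also received pEGFP-mCherry-T2A-EGFP-151TCG, a fluorescent reporter with a TCG codon in EGFP, and the culture titled RiboWo did not. Both were grown in dishes of 15 cm for 30 h of expression and exposed to cycloheximide at 0.1 mg/mL for 1 min, and read as 50 nt single ends. The question is how these rows differ when the reporter plasmid is added. The effect of the tRNA is not addressed, since both cultures had it. Each group was 1 library, so there is no replicate, no test and no p-value, and all differences given are between 2 libraries rather than conditions.

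Most ribosomal protein pseudogenes are processed copies. The messenger RNA was copied into DNA and inserted elsewhere in the genome, without introns and usually without the promoter of the gene it came from. Ribosomal protein genes, whose messages are short and abundant in every cell, have many such copies. A short read from the message of the parent can match a copy nearly or fully, so counts on a pseudogene can be reads of the parent placed on the copy, reads of the copy's own RNA, or both. The sources used here do not say how reads with several matches were handled, and these possibilities cannot be told apart in the counts.

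The libraries held 2519301 counts with the reporter against 3151403 without it. The scaling was by TMM, under which the median log2 ratio of the 9931 rows with 10 or more counts was 0.02. Under total counts that median was 0.48. Ratios are with the reporter over without it, with an exact interval at 95% that covers counting error only. The line was checked by marker genes. The 5 genes taken as expressed in HEK293T, NEFL, NEFM, VIM, KRT8 and KRT18, had 334 counts with the reporter against 245 without it. Leukocyte markers had 5 against 20 and were split. CORO1A had 1 and 14 and LCP1 0 and 6, but CD14 had 3 and 0 and LYZ 1 and 0, with PTPRC at 0 in both libraries. Fibroblast markers had 15 against 55. Erythroid and serum markers had 0 against 16, of which ALB made 13 and HBB 3, with HBA1 and HBA2 at 0 in both. The part of such RNA in the values of the pseudogenes was not tested.

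Most ribosomal protein pseudogenes had no count in these libraries. Of the 1298 rows, 1087 had no count in either library, 84 had 1 count, 47 had 2 and 28 had 3. Rows with a count numbered 211, or 16.3%, and 197 of these stayed below 10. Among the 13969 other pseudogene rows, 1375 or 9.84% had a count and 112 had 10 or more. All 1298 rows together had 522 counts with the reporter against 403 without it, or 0.0207% (0.0190 to 0.0226%) and 0.0128% (0.0116 to 0.0141%) of the libraries. The share of protein-coding rows with 10 or more counts was also higher with the reporter, at 13.3% against 9.45%. Under TMM the pooled log2 ratio of the 1298 rows was 0.24 (0.05 to 0.43). The 78 parent genes of these rows had 27077 and 22474 counts. The copies thus held 1.89% (1.73 to 2.06%) of the counts of copies and parents with the reporter and 1.76% (1.60 to 1.94%) without it.

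**Figure D1:**
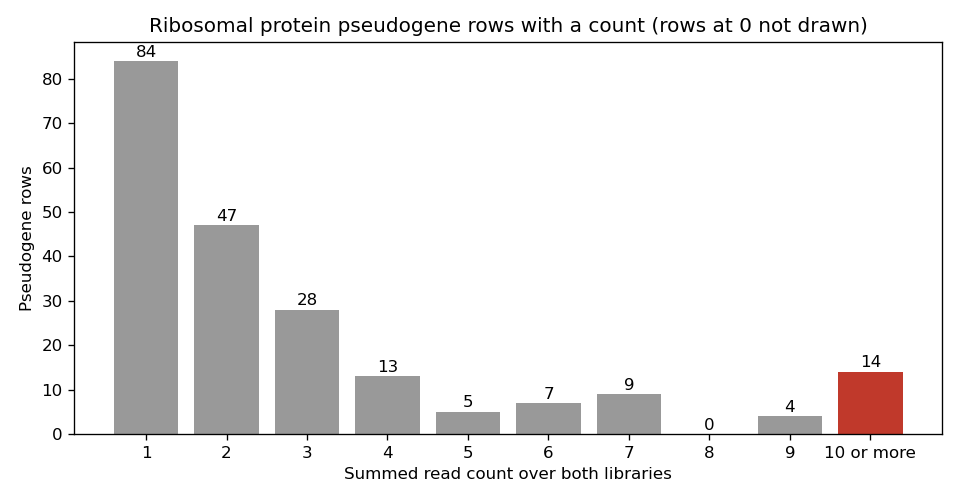
Number of ribosomal protein pseudogene rows (vertical axis) at each summed read count over both libraries (horizontal axis), without the 1087 rows at 0. Most rows with a count had 1 to 3 counts, and 14 rows had 10 or more (red).

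The threshold cut through a continuous range of low counts. Just inside it lay 3 rows at 10 counts, RPL13P5, RPS18P9 and RPS4XP15. Just outside lay 4 rows at 9 counts. RPL22P14 had 9 counts with the reporter against 0 without it, RPL38P5 had 7 and 2, RPL4P2 had 5 and 4, and RPS3AP50 had 3 and 6.

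The 14 pseudogenes together had 254 counts with the reporter against 191 without it. In a bulk library fewer cells and less RNA per cell cannot be told apart, nor, with ribosome footprints alone, the amount of an RNA and the ribosomes on it. Their pooled log2 ratio was 0.28 (0.003 to 0.56), and without RPS4XP22 it was 0.20 (-0.18 to 0.58). Their 10 parent genes had 3836 and 3247 counts, a pooled log2 ratio of 0.11 (0.04 to 0.18). The copies held 6.21% (5.49 to 6.99%) of the counts of the 14 rows and these parents with the reporter and 5.56% (4.81 to 6.37%) without it. Set directly against the parents, where no scaling enters, the log2 odds of a pseudogene count were 0.17 (-0.11 to 0.46). The interval includes 0. The median log2 ratio of the 14 was 0.27, beside 0.02 over all rows with 10 or more counts and -0.13 over the 112 other pseudogenes with that minimum.

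A call needed a ratio of 2-fold or more in either direction and an interval without 0. By this rule 1 of the 14, RPL23AP82, was higher with the reporter and 1, RPL12P29, was lower. Across all 9931 rows the rule called 6.93% higher and 7.84% lower, so the counts among the pseudogenes were near the background. Among the 112 other pseudogenes it called 7.14% higher and 8.04% lower. Without the interval, 2 of the 14 passed 2-fold upward and 2 downward, where 12.7% and 13.2% of all rows did. The added rows were RPL13P5, with 7 counts and 3, and RPL32P31, with 6 and 11. RPL32P31 was short of 2-fold under the other scalings, at -0.93 with DESeq2 size factors and -0.55 with total counts.

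**Figure D2:**
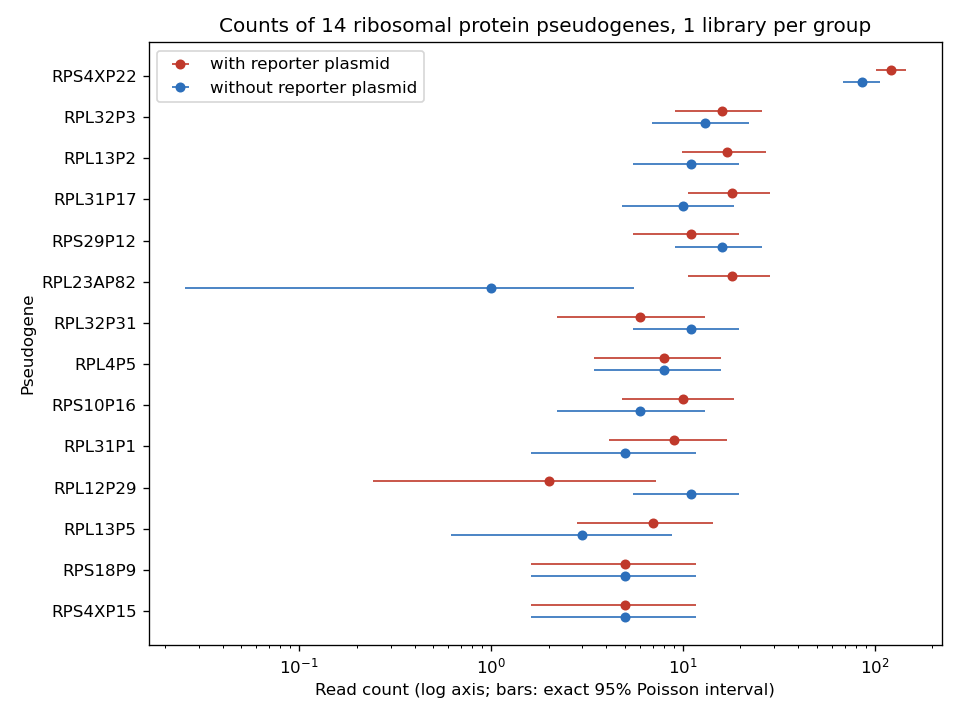
Read counts on a log axis (horizontal) of the 14 pseudogenes (vertical), with the reporter plasmid in red and without it in blue, 1 library each, and exact 95% Poisson intervals as bars. RPS4XP22, at 122 and 86 counts, stands apart from the other 13, which lie between 1 and 18, and only RPL23AP82 shows intervals that do not overlap.

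The loci were scattered over 13 chromosomes, and 11 of the 14 lay on another chromosome than their parent. RPL32P3, RPL31P17 and RPS18P9 lay on the chromosome of theirs, as did 6.16% of all 1298 copies. Coordinates below are those of the files. Each of the 14 loci overlapped the locus of the same symbol in the RefSeq table of GRCh38.p14. By class 9 were processed pseudogenes, RPL13P5 and RPS18P9 were transcribed processed ones, RPL32P3 and RPL23AP82 were transcribed unprocessed ones, and RPS10P16 was listed as unprocessed. Over all copies, a count was seen on 20 of 51 transcribed processed rows, or 39.2% (25.8 to 53.9%), and on 187 of 1233 processed rows, or 15.2% (13.2 to 17.3%). These intervals are over rows rather than counts, treat the rows as independent, and take no account of listed length.

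RPS4XP22 was by far the most counted copy. It is a processed pseudogene of RPS4X, the X-linked gene of a small subunit protein (chromosome 19, 9683294 to 9684073, minus strand, ENSG00000239830). It had 122 counts with the reporter (exact Poisson interval 101 to 146) against 86 without it (68.8 to 106). That is 46.7% of the counts of the 14 pseudogenes and 22.5% of those of all 1298 copies. Among pseudogenes of any kind it came next after MTND4P12 with 271 and 171 counts and MTND5P10 with 69 and 197, both copies of mitochondrial genes. Only 366 protein-coding genes had more counts.

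The parent differed between the libraries in the same direction. RPS4X had 341 counts and 264. The copy held 26.3% (22.4 to 30.6%) of the counts of the pair with the reporter and 24.6% (20.2 to 29.4%) without it, and these intervals overlap. The log2 ratio was 0.37 (-0.04 to 0.79) for RPS4XP22 and 0.24 (0.0010 to 0.47) for RPS4X, and the log2 odds between them were 0.14 (-0.34 to 0.62). With DESeq2 size factors RPS4XP22 was at 0.45 (0.04 to 0.86) and RPS4X at 0.31. With total counts they were at 0.83 (0.42 to 1.24) and 0.69. The interval of RPS4XP22 thus included 0 under TMM only, and its ratio stayed short of 2-fold under each scaling. No other gene of the table overlapped the locus of RPS4XP22. Per listed length it exceeded its parent, with deposited RPKM values of 54.4 and 39.9 against 40.5 and 32.6, but RPS4X is listed with 2930 bases and the copy with 780.

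The other 22 copies of RPS4X were far lower. Together they had 25 counts with the reporter against 13 without it, and 10 of them had any count. RPS4XP15 (chromosome 12, 87944885 to 87950819, plus strand) was the next, with 5 counts in each library. Its listed length of 795 bases is spread over a span of 5935, so this copy is interrupted in the annotation. RPS4XP1 had 5 and 2 counts, and RPS4XP7 had 3 and 4. The RPS4X family thus had RPS4XP22 as its main counted copy, with 84.6% of all counts on its copies.

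RPS10P16 was the only one of the 14 with more counts than its parent. RPS10 encodes a small subunit protein that is ubiquitinated when ribosomes collide. It had 1 count in each library. RPS10P16 (chromosome 8, 117523271 to 117524061, minus strand) had 10 counts with the reporter (4.80 to 18.4) against 6 without it (2.20 to 13.1). It held 90.9% (58.7 to 99.8%) and 85.7% (42.1 to 99.6%) of the counts of the pair, and the intervals overlap. RPS10P28, below the minimum, had 5 counts and 2, also above RPS10, and among all 211 copies with a count these 2, or 0.948%, exceeded their parent in both libraries.

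The RPS10 family was thus counted mostly on its copies. Its 12 copies had 18 counts with the reporter against 12 without it, against 1 and 1 for the gene. The readthrough row RPS10-NUDT3, which overlaps RPS10 on the same strand, had 0 counts in both libraries. The treatment of reads shared by 2 rows is not stated in those sources. RPS10P16 lies across MED30, a gene on the opposite strand with 2 counts and 9.

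RPS29P12 copies RPS29, the gene of a short zinc-binding protein of the small subunit (chromosome 5, 180945756 to 180945907, plus strand). It had 11 counts with the reporter (5.49 to 19.7) against 16 without it (9.15 to 26.0), while RPS29 had 713 and 592. Its log2 ratio was -0.67 (-1.93 to 0.53) against 0.14 (-0.02 to 0.30) for RPS29, and the log2 odds were -0.81 (-2.07 to 0.40). With 152 listed bases it was the shortest of the 14, against 9840 for its parent. The deposited RPKM was 25.2 against 25.2 for RPS29 with the reporter and 38.1 against 21.8 without it. The copy lies on the strand of BTNL8, which had no counts.

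RPS18P9 copies RPS18, the gene of a protein in the head of the small subunit (chromosome 6, 149592687 to 149601878, plus strand). It had 5 counts in each library, against 971 and 896 for RPS18, which was the most counted parent of the 14. It held 0.512% (0.167 to 1.19%) and 0.555% (0.180 to 1.29%) of the counts of the pair, the lowest shares among the 14 with the reporter. Its locus overlaps KATNA1 on the opposite strand, with 12 counts and 7, and a small nucleolar RNA gene on the same strand, with 0 counts in both libraries. The listed 1725 bases of RPS18P9 lie over a span of 9192 in the files, against a span of 987 for the symbol in RefSeq. Where in this span its counts lie is not visible in counts per gene.

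RPL32, which encodes a large subunit protein, had 2 copies in the set and relatively few counts itself, 56 with the reporter and 77 without it. RPL32P3 (chromosome 3, 129382922 to 129399655, minus strand) had 16 counts (9.15 to 26.0) and 13 (6.92 to 22.2). RPL32P31 (chromosome 17, 80542203 to 80542605, plus strand) had 6 (2.20 to 13.1) and 11 (5.49 to 19.7). The copies therefore went in opposite directions between the libraries, at log2 ratios of 0.17 (-0.98 to 1.34) and -1.01 (-2.73 to 0.55), and both intervals include 0. RPL32 itself was at -0.59 (-1.11 to -0.08). RPL32P3 held 22.2% (13.3 to 33.6%) of the counts of the pair with the reporter and 14.4% (7.92 to 23.4%) without it.

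The locus of RPL32P3 also contains a small RNA gene. SNORA7B, an H/ACA guide RNA of rRNA modification on the same strand, had 57 counts and 25, a log2 ratio of 1.06 (0.35 to 1.80). RPL32P3 is listed with 5168 bases over a span of 16734, the longest listed length of the 14. The part of fragments of SNORA7B or its host transcript in the counts of RPL32P3 was not tested. All 36 copies of RPL32 had 31 counts in each library, or 35.6% and 28.7% of the counts of the family.

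RPL31, the gene of a large subunit protein near the exit of the peptide tunnel, also had 2 copies in the set, and they had like ratios. RPL31P17 (chromosome 2, 222726457 to 222726834, plus strand) had 18 counts (10.7 to 28.4) and 10 (4.80 to 18.4). RPL31P1 (chromosome 21, 43551229 to 43551600, plus strand) had 9 (4.12 to 17.1) and 5 (1.62 to 11.7). RPL31 had 636 and 382. The log2 ratio was 0.72 for both copies, with intervals of -0.48 to 1.99 and -1.02 to 2.64, and 0.60 (0.42 to 0.79) for RPL31. RPL31P17 held 2.75% and 2.55% of the counts of its pair and RPL31P1 1.40% and 1.29%.

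RPL13, another large subunit gene, had 666 counts with the reporter against 585 without it, and 2 of its 6 copies were in the set. RPL13P2 (chromosome 20, 46099518 to 46100176, plus strand) had 17 counts (9.90 to 27.2) and 11 (5.49 to 19.7). RPL13P5 (chromosome 12, 6873389 to 6884741, plus strand) had 7 (2.81 to 14.4) and 3 (0.619 to 8.77). Their log2 ratios were 0.50 (-0.68 to 1.74) and 1.09 (-1.04 to 3.67), against 0.05 (-0.11 to 0.22) for RPL13. RPL13P5 overlaps LRRC23 on the same strand, with 2 counts and 1. In RefSeq the symbol RPL13P5 spans 634 bases, against a span of 11353 in the files.

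RPL4P5 was level between the libraries. Its parent RPL4 encodes a large subunit protein that reaches into the peptide tunnel, and had 272 counts and 289. RPL4P5 (chromosome 9, 7477045 to 7478320, minus strand) had 8 counts in each library (3.45 to 15.8). It held 2.86% (1.24 to 5.55%) and 2.69% (1.17 to 5.24%) of the counts of the pair. No other gene overlapped it.

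RPL12P29 was the only copy called lower with the reporter. RPL12 encodes a protein at the base of the ribosomal stalk, and had 51 counts and 78, a log2 ratio of -0.75 (-1.28 to -0.22). RPL12P29 (chromosome 10, 84389170 to 84389626, minus strand) had 2 counts with the reporter (0.242 to 7.22) against 11 without it (5.49 to 19.7), a log2 ratio of -2.59 (-5.81 to -0.40). These Poisson intervals overlap. Against its parent the log2 odds were -1.84 (-5.11 to 0.45), so the difference from RPL12 was within counting error. Under total counts the log2 ratio was -2.14 (-5.35 to 0.06), and the call was lost. The other 49 copies of RPL12 had 0 counts and 3.

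RPL23AP82 differed most between the libraries. It is a transcribed unprocessed pseudogene of RPL23A, the gene of a large subunit protein at the tunnel exit (chromosome 22, 50756948 to 50801309, plus strand). It had 18 counts with the reporter (10.7 to 28.4) against 1 without it (0.0253 to 5.57), and these intervals do not overlap. Its log2 ratio was 4.04 (1.37 to 9.42), against 0.50 (0.10 to 0.92) for RPL23A, which had 129 counts and 83. It was the only 1 of the 14 whose log2 odds against the parent excluded 0, at 3.52 (0.81 to 8.93). Of the 211 copies with a count 2.37% did, but 197 of these were below the minimum of 10. The 2 shares therefore rest on unlike counts and are not directly comparable.

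The rest of its family and the gene it overlaps had low counts in both libraries. The other 90 copies of RPL23A had 15 counts with the reporter against 16 without it, and RABL2B, on the opposite strand within the locus, had 7 and 4. The listed 4809 bases of RPL23AP82 lie over a span of 44362, more than any other of the 14. Whether its 18 counts lie at 1 position or along the transcript is not visible in counts per gene. Scaling did not change this call, with a log2 ratio of 4.11 under DESeq2 size factors and 4.49 under total counts.

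**Figure D3:**
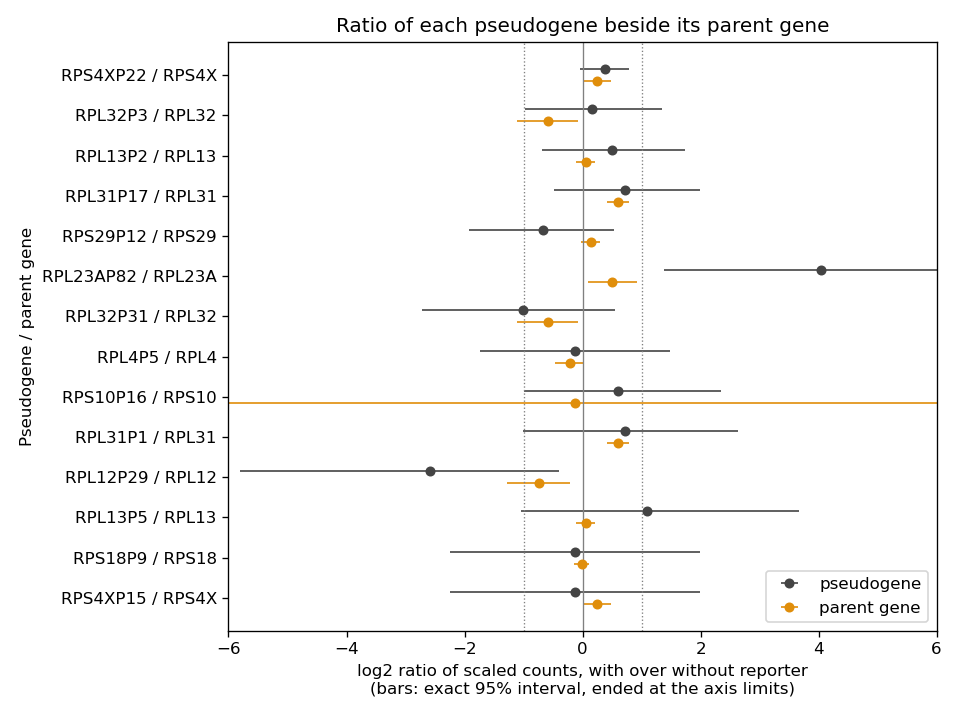
Log2 ratio of scaled counts with over without the reporter (horizontal) for each of the 14 pseudogenes (grey) and its parent gene (orange), with exact 95% intervals ended at the axis limits and dotted lines at 2-fold. Intervals of most pseudogenes are wide and include 0, and only RPL23AP82, at 4.04, lies clear of its parent, at 0.50.

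Beside their parents, 10 of the 14 copies had a ratio of the same sign, but copies of 1 parent share its value and most intervals are wide. RPL4P5, RPS18P9, RPS4XP15 and the parent RPS10 had equal counts in the libraries, so their signs come from the scaling alone. Under TMM scaling 8 ratios of the 14 copies were above 0 and 6 below it, where 51.2% of all rows were above 0. Under total counts 11 were above and 3 below, because RPL4P5, RPS18P9 and RPS4XP15, with equal counts in the libraries, changed sign. Among the parents, none of the 10 reached 2-fold, and RPL31 was the highest at 0.60 and RPL12 the lowest at -0.75.

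The wider list of 80 cytosolic ribosomal protein genes is the pathway the copies come from. It had 28497 counts with the reporter against 23628 without it, a pooled log2 ratio of 0.14 (0.11 to 0.16) and a median of 0.12. Of the 80, 2.5% were called higher and 0 lower. The 2 called were FAU, whose product is cleaved to a small subunit protein, with 56 counts and 24 (1.09, 0.38 to 1.84), and RPL17 with 16 and 5 (1.55, 0.03 to 3.35).

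The share of a copy in the counts of its pair ranged widely. For 13 of the 14 the copy had fewer counts than the parent in both libraries. Per listed length, RPS4XP22 and RPS10P16 exceeded their parents in both libraries, at 1.34 and 1.22 times and at 46.4 and 27.8 times. Of the 211 copies with a count, 197 of them below the minimum of 10, 1.42% did so. RPS29P12 (0.999 and 1.75 times) and RPL32P31 (0.987 and 1.32 times) did so only without the reporter. The parent had the longer listed length for 12 of the 14, by a median of 4.52 times. Division by length therefore lowers the parent relative to the copy, and without it RPS10P16 alone exceeded its parent.

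**Figure D4:**
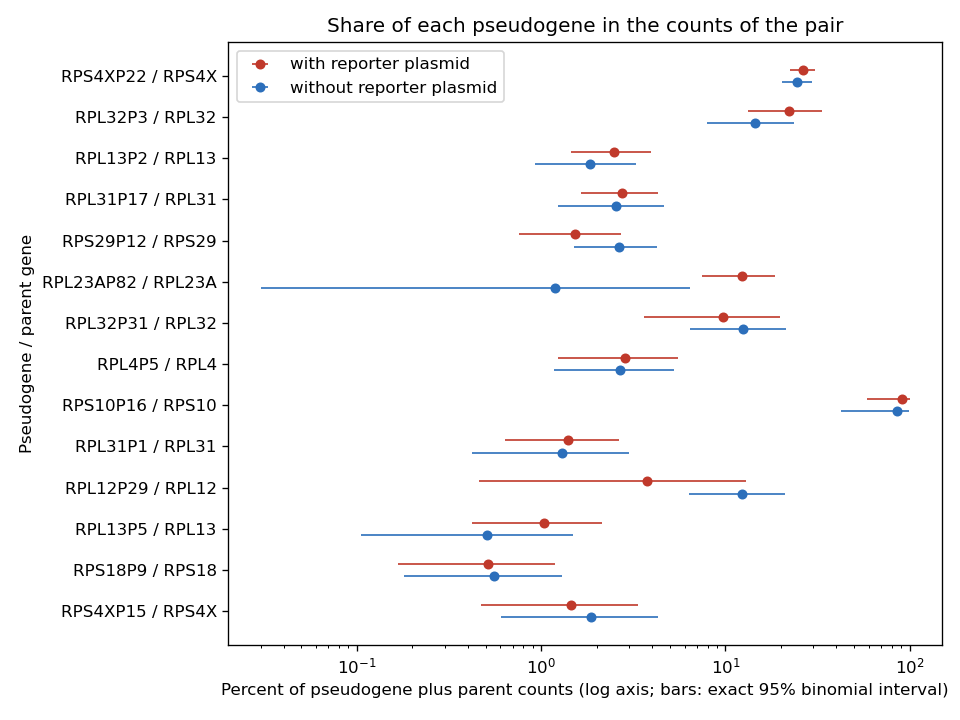
Percent of the counts of pseudogene plus parent that fell on the pseudogene (horizontal, log axis), for the 14 pairs, with the reporter in red and without it in blue, and exact 95% binomial intervals. Shares run from under 1% for RPS18P9 to 90.9% for RPS10P16, and the intervals of the libraries overlap in every pair except RPL23AP82.

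The number of copies of a parent and its counts are shown for all 78 families. The 10 parents of the set had between 5 copies, for RPS18, and 91, for RPL23A, so a counted copy was found in small and large families. RPS10 had the lowest summed count of the 78 parents, at 2.

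**Figure D5:**
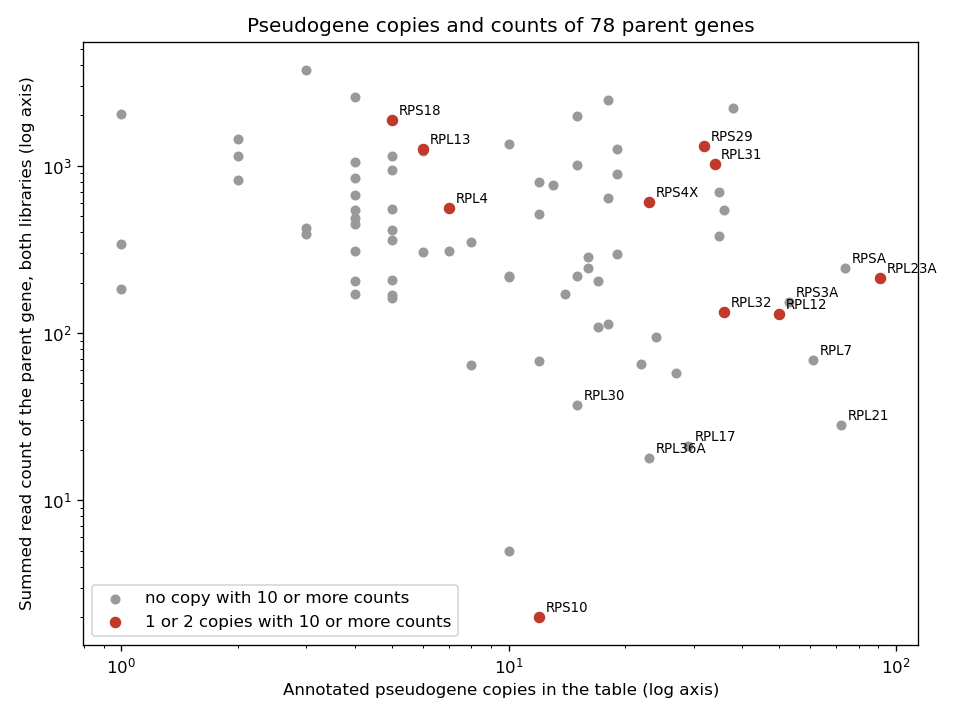
Annotated pseudogene copies of each parent gene (horizontal, log axis) against the summed read count of the parent over both libraries (vertical, log axis), 1 point per family, with the 10 families that have 1 or 2 copies at 10 or more counts in red. RPS10, at 2 counts, lies lowest, and RPL23A has the most copies, 91.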

How the data were processed

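The 14 rows, the gene lists and the parents were chosen with earlier results of these data known. The authors deposited whole-number counts per gene and RPKM values for the same rows. The submitters' processing notes name TopHat2 2.0.12 and HTSeq 0.9.1 without saying what each did. They also name GRCh37 and hg19, while the coordinates match GRCh38. Strand and multiple matches are not described in the sources used here. The deposited RPKM values equal counts over listed length and 1 library size each.

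Parents were found by removing the final P and number of the symbol, and all 1298 had a coding row. TMM scaling came from edgeR 4.0.16 over all rows (R 4.3.3), with DESeq2 1.42.0 size factors and total counts as alternatives. Intervals are Clopper-Pearson for ratios and shares, exact conditional for odds and exact Poisson for counts (Python 3.11.15, scipy 1.17.1). PCR copies are not independent molecules, so the intervals on counts cover counting error only. The named genes are the 15 most counted pseudogenes, which takes in all 14, with their parents. Others were named after their values were seen. The call rule was tested on simulated counts with Poisson error only, without PCR copies or variation between cultures. That test therefore bears on counting error alone. Read sequences and sequences of the copies were not used here.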

Additional observations from a re-analysis of the deposited data

How the results depend on the processing

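No paired analysis was possible because each group had 1 library. At most 29 counts in 13 of the 14 rows limit every ratio, and a minimum count decides which rows are seen. A minimum of 5, 20 or none gave 39, 5 or 211 rows, of which 4, 0 or 4 were called higher, 1, 0 or 1 lower, 3, 0 or 5 differed from their parent, and 3, 1 or 3 exceeded it per length. The share of the copies, 6.21% and 5.56% at the minimum of 10, was then 3.23%, 7.09% or 2.58% with the reporter and 3.09%, 6.68% or 2.48% without it, each over the parents of the rows kept only. The share of all rows called was computed at the minimum of 10 only, so the calls at 5, 20 or none lack that background. With no minimum, the rule called 19 of the 1375 other pseudogenes with a count higher and 28 lower. When those of the 14 that overlap another gene were left out 6 remained, with 0 higher, 0 lower and 0 differing from the parent. Of these 6, 1 was above its parent per length, and the shares were 8.20% and 7.58%. Without RPS4X and its copies the shares were 3.51% and 3.24%. Under total counts the pooled log2 ratio was 0.73, the median 0.72 and 0 rows were lower. At 2-fold without the interval 2 were higher and 2 lower. Without division by length, chosen after seeing the data, 1 exceeded its parent. The other 33 of 65 alternative values stayed within the interval or 1.5 times of those reported. For the median, that interval ran from the 3rd lowest to the 3rd highest of the 14 ratios, -0.67 to 0.716. It is a spread over rows and does not measure counting error. With no minimum the median was 0.716, at the upper end of that range, so this value stayed within it only just.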

Other observations

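Many counted copies below the minimum belonged to families outside the 10 parents. RPSA, the gene of the laminin receptor protein of the small subunit, had 74 copies, of which 16 had a count, together 25 with the reporter and 16 without it, and none above 6. RPS3A had 53 copies with 28 and 17 counts, spread over 12 copies, against 72 and 82 for the gene. The 3 counted copies of RPL22 had 12 counts with the reporter against 0 without it, while RPL22 had 29 and 36. With 3 counts in place of the 0 these copies were 3.65-fold higher, which leaves out the counting error of the 12. The 4 counted copies of RPS27A went the other way, with 0 counts and 7, against 52 and 61 for RPS27A. With 3 counts in place of the 0 they were 2.56-fold lower with the reporter, without the counting error of the 7. Copies of RPL30 had 6 counts and 0. These families were picked after their values were seen, among 57 with a counted copy, and the differences rest on few counts. A further 21 families, with 110 copies, had no counted copy at all.

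The counts of the parents spread widely at any number of copies. Over the 78 families the Spearman correlation of the number of copies with the summed count of the parent was -0.31, as a description across genes of the same 2 libraries. The 13 families with 30 or more copies had a median parent count of 246, the 30 with 10 to 29 copies 219.5, and the 35 with under 10 copies 487. RPL21, with 72 copies, had 12 counts and 16, and its copies had 2 in each library. RPL7, with 61 copies, had 27 and 42. The median summed count of the 80 listed ribosomal protein genes was 370, and RPS10, RPL36A, RPL17, RPL21 and RPL30 lay under 50. A coding readthrough row on the same strand overlapped RPS10, RPL36A and RPL17, and each had 0 counts. The number of copies correlated with the summed counts on the copies at 0.61, but a sum over more copies tends to be larger by construction. A count was seen on 15.1%, 17.6% and 16.6% of copies in families of 30 or more, 10 to 29 and under 10.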
